A study of Bos taurus with 37 samples.

Results

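Female bovine blastocysts made by somatic cell nuclear transfer (SCNT-BLs) were compared with female blastocysts made by in vitro fertilization (IVF-BLs). The comparison took in 12 of the 35 single blastocysts in the series, 6 SCNT-BLs and 6 IVF-BLs, and each embryo was 1 replicate. The members were chosen by the sample labels, and 14615 of the 22628 rows of the deposited table entered the test: autosomal genes with a mean above 0.1 FPKM (fragments mapped to a transcript, scaled to its length and to the size of the library) over these 12 embryos. X-linked genes were left out.

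SCNT-BLs came from oocytes without their own nucleus that were each fused with a single ear skin fibroblast of a female animal and then activated. The fibroblasts had been passaged in culture before transfer, and 1 library of them was sequenced. IVF-BLs came from fertilized oocytes and were sexed by PCR. Female sham NT-BLs (5 embryos, fertilized zygotes that went through the manipulation and activation without loss of their pronuclei) and male SCNT-BLs and male IVF-BLs (6 each) are given only as further values. No gene was deleted and no transgene was used in any group. Blastocysts had been picked by their number of nuclei after Hoechst staining, so the values describe embryos that had reached that stage. The sources do not say which embryos shared a day, an oocyte batch or a culture drop, so p-values measure the spread between these embryos. All SCNT-BLs carried the nuclear genome of the female donor fibroblasts, and IVF-BLs did not. Nuclear transfer and donor genotype therefore cannot be told apart in this comparison.

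A blastocyst holds an outer epithelium, the trophectoderm, that will form the placenta, and an inner cell mass that gives rise to the epiblast and the primitive endoderm. In cattle the trophectoderm secretes interferon tau, the signal by which the dam recognises pregnancy. After nuclear transfer the oocyte has to shut down the fibroblast program and start these embryonic programs from an adult genome, and cloned bovine embryos are known for frequent placental failure later in gestation.

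Both groups carried the markers of a blastocyst. The trophectoderm factors CDX2, GATA2, GATA3 and TFAP2C, the keratins KRT8 and KRT18, the inner cell mass factors POU5F1 and SOX2 and the primitive endoderm genes GATA6 and PDGFRA were above 1 FPKM in all 12 embryos. The female donor library also exceeded 1 FPKM in PDGFRA (77.2), KRT8 (17.1), KRT18 (3.18), TFAP2C (1.91) and POU5F1 (1.58), so these do not separate embryo from fibroblast at that level. It had 0 FPKM of CDX2, GATA2 and SOX2, 0.170 of GATA3 and 0.0745 of GATA6. NANOG was listed at 0 in 1 SCNT-BL and in no IVF-BL, and SOX17, a primitive endoderm factor, was listed at 0 in 6 of 6 SCNT-BLs and 5 of 6 IVF-BLs. The fibroblast gene VIM, which encodes vimentin, did not exceed 0.123 FPKM in SCNT-BLs or 1.596 FPKM in IVF-BLs, against 1504 FPKM in the female donor library. Other fibroblast genes were detected: COL1A2 had 1.20 to 6.83 FPKM in SCNT-BLs and 2.47 to 5.34 FPKM in IVF-BLs (donor library 1668 FPKM). THY1 had 1.225 to 6.75 and 0.418 to 15.2 FPKM (donor library 604 FPKM). In SCNT-BLs and IVF-BLs, LUM reached 3.92 and 2.06 FPKM and COL1A1 1.64 and 3.44 FPKM. COL3A1 and DCN stayed below 1 FPKM in all 12 embryos. The blood genes HBA and HBB were listed at 0 in all 12 embryos. PTPRC, a gene of white blood cells, was at 0 in 5 of 6 SCNT-BLs and 5 of 6 IVF-BLs. Its highest value was 0.0272 FPKM in SCNT-BLs and 0.0177 FPKM in IVF-BLs. Other genes of blood cells were present, and 4 of the 7 tested had positive differences. Of the 7, LYZ and CD68, which monocytes and macrophages express, were higher in SCNT-BLs at an unadjusted p under 0.05 (limma), and none of the 7 passed. The list summed to 21.7 to 56.2 FPKM in SCNT-BLs and 11.4 to 33.8 FPKM in IVF-BLs. The part of these genes in the results was not tested. FSHR and CYP19A1, which mark the granulosa and cumulus cells around the oocyte, were detected in all 12 embryos, at 6.08 to 10.1 and 4.78 to 17.6 FPKM in SCNT-BLs and at 0.431 to 21.1 and 7.56 to 22.0 FPKM in IVF-BLs. PTX3, another cumulus gene, was listed at 0 in all SCNT-BLs and did not exceed 0.0696 FPKM in IVF-BLs, and TNFAIP6, a further one, was at 0 in all SCNT-BLs and reached 7.68 FPKM in IVF-BLs, 4 of which were at 0.

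SCNT-BL replicates 5 and 6 stood apart from the rest. The table holds no read counts. The study lists sequencing depth in its supplement, but those values could not be read here. Depth is therefore given only as an estimate relative to IVF-BL replicate 1, from the steps between low values. That estimate was 0.255 and 0.356 in SCNT-BL replicates 5 and 6, 0.655 to 0.818 in the other 4 SCNT-BLs and 0.603 to 1.01 in IVF-BLs. Autosomal genes above 1 FPKM numbered 9370 and 9250 in those 2 embryos, 10150 to 10531 in the other SCNT-BLs and 9907 to 10649 in IVF-BLs. RN18S1, the row for 18S ribosomal RNA, had 5693 and 2710 FPKM in SCNT-BL replicates 5 and 6, 38217 to 54130 FPKM in the other SCNT-BLs and 6542 to 13721 FPKM in IVF-BLs. Profiles of 2 SCNT-BLs correlated at r = 0.831 to 0.932 (median 0.870), those of 2 IVF-BLs at 0.853 to 0.919 (median 0.882), and those of an SCNT-BL and an IVF-BL at 0.793 to 0.907 (median 0.874), across 10692 genes on the log2(FPKM + 1) scale. These are descriptions across genes and carry no test. The genes past the threshold, and the medians of some lists, are also given without SCNT-BL replicates 5 and 6, an alternative added after the data had been seen.

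Of the 14615 genes, 45 passed an adjusted p of 0.05 (limma on log2(FPKM + 1), Benjamini-Hochberg adjustment), which is 0.308% of those tested: 30 were higher in SCNT-BLs (0.205%) and 15 were lower (0.103%). At an unadjusted p under 0.05 there were 1592 genes (10.9%), 733 of them higher (5.02%) and 859 lower (5.88%) in SCNT-BLs. The embryo values of the 2 groups did not overlap in 200 genes (1.37%), with all SCNT-BLs above all IVF-BLs in 124 (0.848%) and below them in 76 (0.52%). Among the 45 genes past the threshold, the groups did not overlap in 28 of the 30 higher and 13 of the 15 lower ones. Fold changes are given as SCNT-BL minus IVF-BL differences in log2(FPKM + 1), so that the change of a gene with little expression comes out too small. Over all genes tested the median difference was -0.04.

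The number of genes past the threshold depended on single embryos. Without SCNT-BL replicate 3 no gene passed in limma, with 662 higher and 778 lower at an unadjusted p under 0.05. With IVF-BL replicate 3 left out 7 passed, and without any 1 of SCNT-BL replicates 1, 2, 4 and 5 or IVF-BL replicates 1, 2 and 5 there were 10 to 25. An exact permutation test per gene over all labelings called none after adjustment, with 761 genes higher and 816 lower at an unadjusted p under 0.05. Too few genes reached the smallest p of that test for any to pass, so the permutation result decides nothing. Without SCNT-BL replicates 5 and 6 together, 31 genes were higher and 16 lower in SCNT-BLs, and 25 of these 47 were among the 45. All 45 kept their direction in each fit that left out 1 embryo, but they had been selected on these same embryos, so this is no independent check.

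**Figure D1:**
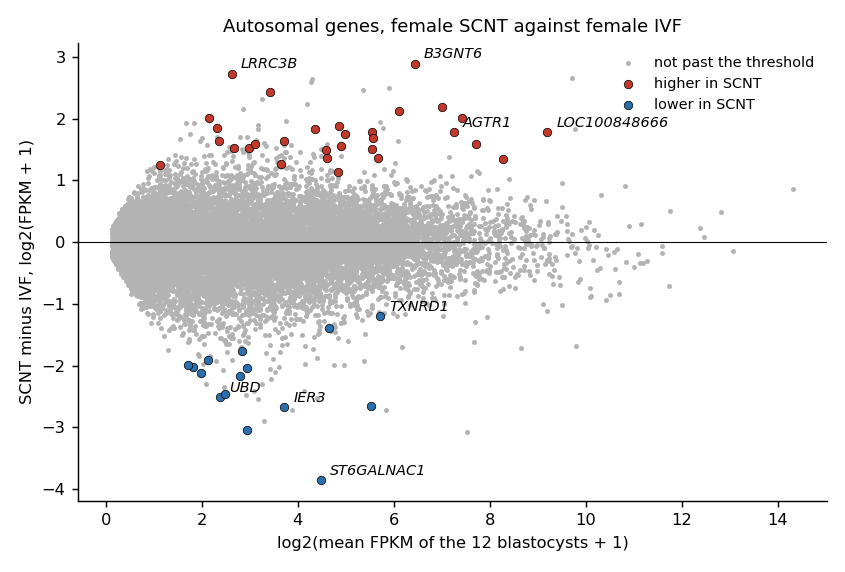
Each point is 1 of 14615 autosomal genes, by log2 of its mean FPKM plus 1 over the 12 embryos (x axis) and its SCNT-BL minus IVF-BL difference in log2(FPKM + 1) (y axis). Red points are the 30 genes higher and blue points the 15 genes lower in SCNT-BLs, and several of the higher genes lie at high levels while most of the lower genes lie at low levels.

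The genes that were higher in SCNT-BLs included several abundant transcripts, with a median SCNT-BL mean of 40.5 FPKM, against a median IVF-BL mean of 13.8 FPKM for the same 30 genes. LOC100848666, an uncharacterised locus and the most abundant of them, had 659, 898 and 1090.2 FPKM (lowest, median and highest embryo) in SCNT-BLs, against 165, 230.0 and 454 FPKM in IVF-BLs. The difference was 1.78 ± 0.26 (SE, limma adjusted p = 0.0144), and it stayed past the threshold in 11 of the 12 fits without 1 embryo. AGTR1, the type 1 receptor for angiotensin II, had 168, 239.8 and 295 FPKM in SCNT-BLs, against 38.1, 74.1 and 105 FPKM in IVF-BLs (1.78 ± 0.27, adjusted p = 0.0144). SP140L, a nuclear protein of the SP100 family, had 198, 273 and 335 FPKM in SCNT-BLs, against 31.5, 67.0 and 119 FPKM in IVF-BLs (2.01 ± 0.29, adjusted p = 0.0144). MOCS3, which activates sulfur carrier proteins for molybdenum cofactor synthesis and tRNA thiolation, had 31.9, 44.0 and 57.9 FPKM in SCNT-BLs, against 5.31, 13.3 and 17.1 FPKM in IVF-BLs (1.87 ± 0.27, adjusted p = 0.0144). The zinc finger gene ZFP30 had 45.6, 68.2 and 90.9 FPKM in SCNT-BLs, against 12.1, 16.5 and 32.3 FPKM in IVF-BLs (1.78 ± 0.26, adjusted p = 0.0144). FAM114A1 had 44.6, 66.8 and 97.1 FPKM in SCNT-BLs, against 14.6, 17.5 and 35.9 FPKM in IVF-BLs (1.68 ± 0.26, adjusted p = 0.0155). In these 6 genes each SCNT-BL lay above each IVF-BL. SCNT-BL replicate 6 was the lowest SCNT-BL in LOC100848666, AGTR1, ZFP30 and FAM114A1. All 6 were also past the threshold without SCNT-BL replicates 5 and 6.

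The proportion of some of these transcripts to each other varied less than their levels. ZFP30 stood at 5.11% to 10.5% of the FPKM of LOC100848666 (median 7.53%) in the 12 embryos and at 7.44% to 9.98% in the 23 other blastocysts. FAM114A1 stood at 6.76% to 9.35% in the 12 embryos and at 7.87% to 10.3% in the others. AGTR1 was less constant, at 17.0% to 35.8% in the 12 embryos and 12.3% to 33.1% in the others. These ratios were chosen for display after the values had been seen. The level itself differed widely between groups: LOC100848666 averaged 898 ± 156 FPKM in female SCNT-BLs and 273 ± 106 FPKM in female IVF-BLs (SD, n = 6 each), 2034 ± 528 FPKM in male SCNT-BLs and 1360 ± 335 FPKM in male IVF-BLs (SD, n = 6 each). Female sham NT-BLs, for which the same IVF-BLs are the control, had 2167 ± 515 FPKM (SD, n = 5), and the female donor library had 639.8 FPKM. Female IVF-BLs thus had the lowest mean of the 5 female and male groups given here. Male and female libraries ran on separate flow cells, so levels between the sexes cannot be told apart from the run.

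The other genes higher in SCNT-BLs were of mixed function. ZNF266, another zinc finger gene, had 243, 324 and 343 FPKM in SCNT-BLs, against 60.2, 103 and 166 FPKM in IVF-BLs (1.59 ± 0.26, adjusted p = 0.02002). ACOT11, an acyl-CoA thioesterase, had 351, 441 and 534 FPKM in SCNT-BLs, against 119, 172 and 261 FPKM in IVF-BLs (1.35 ± 0.24, adjusted p = 0.0324). SCNN1A, the alpha subunit of the epithelial sodium channel that carries sodium across epithelia, had 58.7, 66.4 and 102 FPKM in SCNT-BLs, against 16.4, 25.5 and 47.4 FPKM in IVF-BLs (1.36 ± 0.25, adjusted p = 0.0324). SCNT-BLs and IVF-BLs did not overlap in any of the 3, and 2 glycosyltransferase genes were likewise apart. B3GNT6, which builds core 3 O-glycans on mucins, had 85.7, 150.2 and 193 FPKM in SCNT-BLs, against 5.09, 17.3 and 63.8 FPKM in IVF-BLs (2.89 ± 0.54, adjusted p = 0.0363). B3GALT2, a galactosyltransferase, had 1.12, 2.25 and 2.52 FPKM in SCNT-BLs, against 0, 0.209 and 0.688 FPKM in IVF-BLs (1.26 ± 0.25, adjusted p = 0.0463). Without SCNT-BL replicates 5 and 6, 19 of the 30 higher genes and 6 of the 15 lower ones were past the threshold. Among those that were not were B3GNT6, SCNN1A and WHAMM, a regulator of actin assembly (adjusted p = 0.0714, 0.0616 and 0.0902).

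Several receptor genes were also higher in SCNT-BLs. The lysophosphatidic acid receptor LPAR3 had 21.1, 32.0 and 49.4 FPKM in SCNT-BLs, against 6.15, 12.1 and 20.1 FPKM in IVF-BLs (1.49 ± 0.29, adjusted p = 0.0390). OSMR, a receptor subunit for oncostatin M, had 5.10, 8.40 and 10.9 FPKM in SCNT-BLs, against 1.06, 2.24 and 3.38 FPKM in IVF-BLs (1.52 ± 0.31, adjusted p = 0.0498). The muscle nicotinic receptor subunit CHRNA1 had 7.12, 13.1 and 14.6 FPKM in SCNT-BLs, against 1.69, 3.17 and 5.42 FPKM in IVF-BLs (1.59 ± 0.33, adjusted p = 0.0498). T2R65A, a bitter taste receptor gene, had 26.4, 45.0 and 62.1 FPKM in SCNT-BLs, against 6.42, 12.1 and 25.8 FPKM in IVF-BLs (1.74 ± 0.32, adjusted p = 0.0363). The groups did not overlap in any of these 4 receptor genes. The other named genes on this side had further roles. UPK1B, a tetraspanin of urothelial plaques, had 3.56, 6.84 and 10.6 FPKM in SCNT-BLs, against 0.832, 1.34 and 2.16 FPKM in IVF-BLs (1.64 ± 0.32, adjusted p = 0.0427). SLC46A2, a membrane transporter, had 2.40, 6.04 and 10.5 FPKM in SCNT-BLs, against 0, 0.649 and 2.07 FPKM in IVF-BLs (2.00 ± 0.37, adjusted p = 0.0356). RASGEF1C, an exchange factor for Ras family proteins, had 4.86, 6.15 and 9.18 FPKM in SCNT-BLs, against 0, 1.42 and 2.28 FPKM in IVF-BLs (1.85 ± 0.35, adjusted p = 0.0368). LRRC3B, a leucine-rich repeat protein, had 1.402, 9.57 and 16.8 FPKM in SCNT-BLs, against 0.0621, 0.330 and 1.57 FPKM in IVF-BLs (2.73 ± 0.45, adjusted p = 0.02002), and only its lowest SCNT-BL fell within the IVF-BL range.

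Loci without a gene name were also among the higher genes. LOC511302 had 9.52, 15.8 and 26.0 FPKM in SCNT-BLs, against 0, 2.46 and 4.98 FPKM in IVF-BLs (2.44 ± 0.41, adjusted p = 0.0248). LOC100848576 had 73.2, 202 and 316 FPKM in SCNT-BLs, against 17.6, 44.1 and 85.7 FPKM in IVF-BLs (2.19 ± 0.41, adjusted p = 0.0363). LOC786246 had 71.4, 113 and 149 FPKM in SCNT-BLs, against 11.4, 26.0 and 43.3 FPKM in IVF-BLs (2.12 ± 0.33, adjusted p = 0.0144). In all, 9 of the 30 higher genes carried such locus names. None of the 30 was a member of the pathway, lineage or chromatin lists described below. These lists held only 1345 of the 14615 genes tested, so few of the 30 could fall in them. Of the 1345, 2 passed in either direction, next to 0.308% of all genes.

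**Figure D2:**
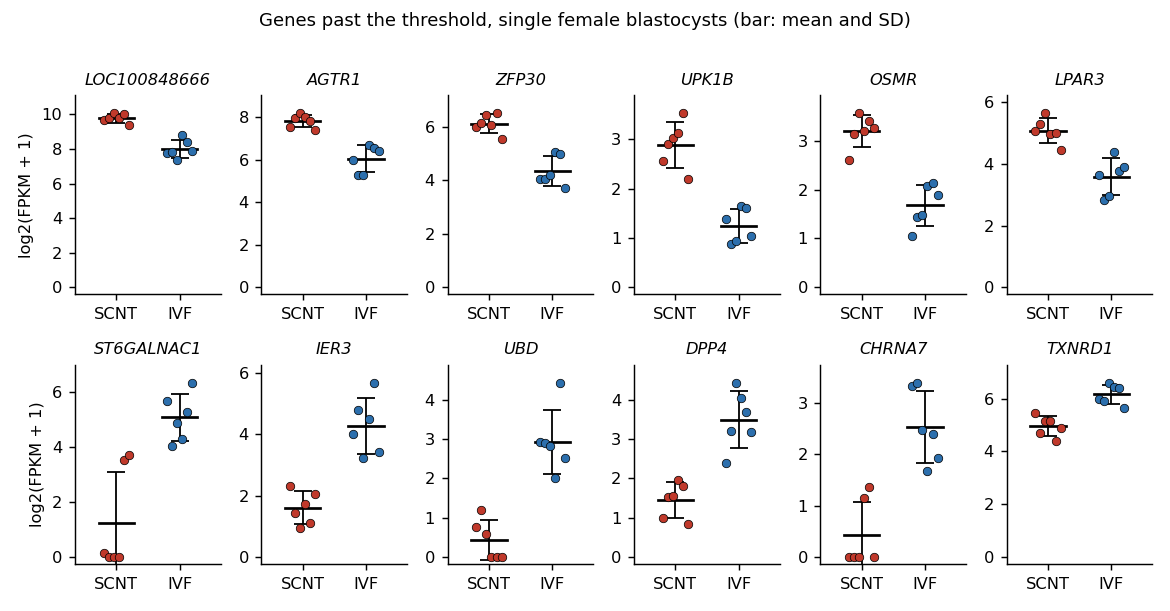
Expression of 6 genes higher (upper row) and 6 genes lower (lower row) in SCNT-BLs, as log2(FPKM + 1), with 1 point for each of 6 SCNT-BLs (red, left) and 6 IVF-BLs (blue, right), and lines for the mean and SD of each group. The groups do not overlap in any of the 12 genes, and 2 SCNT-BLs, with 10.7 and 12.1 FPKM of ST6GALNAC1, stand well above the other 4 in that gene.

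Genes lower in SCNT-BLs were mostly present at moderate levels in IVF-BLs and near the lower limit in SCNT-BLs: their median group mean was 1.79 FPKM in SCNT-BLs, against 10.1 FPKM in IVF-BLs. ST6GALNAC1, a sialyltransferase that caps O-glycans on mucins, had 0, 0.0515 and 12.1 FPKM in SCNT-BLs, against 15.4, 33.0 and 81.1 FPKM in IVF-BLs (-3.85 ± 0.69, adjusted p = 0.0324). SCNT-BL replicates 5 and 6 held 10.7 and 12.1 FPKM of it, and the mean of the other 4 was 0.0257 FPKM. Without these 2 embryos the difference was -5.05 (adjusted p = 0.00014). IER3, an immediate early gene that responds to growth factor signalling, had 0.911, 2.02 and 4.02 FPKM in SCNT-BLs, against 8.36, 18.5 and 50.8 FPKM in IVF-BLs (-2.68 ± 0.41, adjusted p = 0.0144). It was the lower gene that held in most fits, 11 of 12 without 1 embryo. UBD, a ubiquitin-like modifier induced by inflammatory cytokines, had 0, 0.254 and 1.28 FPKM in SCNT-BLs, against 3.04, 6.32 and 20.8 FPKM in IVF-BLs (-2.51 ± 0.40, adjusted p = 0.0176). The thioredoxin reductase TXNRD1, which keeps thioredoxin reduced in the cytosol, had 20.1, 31.5 and 42.8 FPKM in SCNT-BLs, against 49.1, 72.6 and 96.2 FPKM in IVF-BLs (-1.20 ± 0.23, adjusted p = 0.0390). Its difference was -1.05 without SCNT-BL replicates 5 and 6 (adjusted p = 0.0745).

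The other lower genes were of mixed function. The surface peptidase DPP4 had 0.787, 1.92 and 2.92 FPKM in SCNT-BLs, against 4.23, 10.1 and 20.7 FPKM in IVF-BLs (-2.05 ± 0.37, adjusted p = 0.0336). CHRNA7, a subunit of a neuronal nicotinic receptor, was listed at 0 in the median SCNT-BL, with a highest value of 1.58 FPKM, against 2.20, 4.42 and 9.52 FPKM in IVF-BLs (-2.11 ± 0.40, adjusted p = 0.0368). ENPP6, a choline phosphodiesterase, had 0, 0.213 and 0.958 FPKM in SCNT-BLs, against 2.39, 3.61 and 10.4 FPKM in IVF-BLs (-2.03 ± 0.35, adjusted p = 0.0264). DDIT4L, an inhibitor of mTOR signalling, had 0, 0.810 and 2.40 FPKM in SCNT-BLs, against 3.06, 6.26 and 7.53 FPKM in IVF-BLs (-1.91 ± 0.37, adjusted p = 0.0390). EPB41L3, a membrane skeleton protein, had 1.14, 1.56 and 4.15 FPKM in SCNT-BLs, against 5.89, 8.46 and 16.3 FPKM in IVF-BLs (-1.76 ± 0.36, adjusted p = 0.0498). STYK1, a kinase-like membrane protein, is listed in 2 rows. The row past the threshold had 0, 0.0939 and 0.472 FPKM in SCNT-BLs, against 0.954, 3.70 and 11.02 FPKM in IVF-BLs (-1.99 ± 0.38, adjusted p = 0.0368). The groups did not overlap in these 6 genes. TPD52L1 and METTL11A did overlap, at 0, 0.312 and 1.69 and at 0, 0.863 and 5.17 FPKM in SCNT-BLs, against 1.14, 6.80 and 20.8 and against 4.33, 9.87 and 17.1 FPKM in IVF-BLs (adjusted p = 0.0483 and 0.0498). Of these 8 genes, CHRNA7 and ENPP6 kept the call without SCNT-BL replicates 5 and 6.

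The lower genes also included 3 loci without a gene name. LOC100337113 had 0, 0.112 and 0.624 FPKM in SCNT-BLs, against 1.59, 11.3 and 26.1 FPKM in IVF-BLs (-3.05 ± 0.54, adjusted p = 0.0275). LOC100847989 had 0.893, 12.9 and 39.5 FPKM in SCNT-BLs, against 50.1, 76.8 and 98.4 FPKM in IVF-BLs (-2.65 ± 0.51, adjusted p = 0.0390). LOC100140254 had 5.70, 13.5 and 17.7 FPKM in SCNT-BLs, against 21.7, 33.0 and 49.9 FPKM in IVF-BLs (-1.39 ± 0.28, adjusted p = 0.0498). The groups did not overlap in any of the 3, and LOC100847989 kept the call without SCNT-BL replicates 5 and 6.

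Beside these, the female sham NT-BLs, whose control would be the same IVF-BLs, had mean values of 4.51 ± 1.28 FPKM for IER3, 1.87 ± 1.70 for UBD, 32.4 ± 5.83 for TXNRD1, 6.90 ± 3.06 for DPP4 and 14.6 ± 9.60 for ST6GALNAC1 (SD, n = 5). For AGTR1 they had 549.6 ± 231 FPKM, for SP140L 669 ± 291 and for MOCS3 129 ± 58.4. No comparison is drawn from them, since it would share its control embryos with the one described here.

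Lineage factors did not pass the test. None of 21 trophectoderm factors tested passed the threshold, with 1 higher and 1 lower at an unadjusted p under 0.05 and a median difference of -0.03, next to -0.04 over all genes. CDX2, the factor that sets trophectoderm identity, had 15.7, 21.3 and 27.6 FPKM in SCNT-BLs, against 17.3, 19.6 and 30.9 FPKM in IVF-BLs (-0.07 ± 0.22, adjusted p = 0.918). GATA3 had 154, 200.3 and 207 FPKM in SCNT-BLs, against 122, 142 and 223 FPKM in IVF-BLs (0.33 ± 0.19, adjusted p = 0.555). The homeobox gene MSX2 had 94.7, 154 and 1029.7 FPKM in SCNT-BLs, against 73.8, 111 and 137 FPKM in IVF-BLs (adjusted p = 0.377), and its 2 highest values were SCNT-BL replicates 5 and 6. Of 20 pluripotency and inner cell mass genes none passed, with 1 higher and 1 lower at an unadjusted p under 0.05. POU5F1 had 27.3, 48.1 and 67.2 FPKM in SCNT-BLs, against 35.6, 72.5 and 136 FPKM in IVF-BLs (-0.57 ± 0.30, adjusted p = 0.506). SOX2 (-0.12 ± 0.43) and NANOG (0.26 ± 0.70) had differences within their SE, and GDF3, a TGF-beta family ligand of pluripotent cells, had 0, 0.113 and 0.837 FPKM in SCNT-BLs, against 0.370, 1.71 and 9.33 FPKM in IVF-BLs (-1.39 ± 0.44, adjusted p = 0.221).

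Primitive endoderm genes gave no call in 20 tested, with 3 at an unadjusted p under 0.05, all lower, and a median difference of -0.28, or -0.35 without SCNT-BL replicates 5 and 6. GATA6 had 113, 145 and 256 FPKM in SCNT-BLs, against 109.5, 178 and 248 FPKM in IVF-BLs (-0.12 ± 0.26, adjusted p = 0.881), and PDGFRA had 17.8, 57.9 and 71.0 FPKM in SCNT-BLs, against 18.99, 30.4 and 43.4 FPKM in IVF-BLs (0.61 ± 0.33, adjusted p = 0.516). NID1, a basement membrane protein named from the collagen, laminin and integrin list, had 7.56, 71.3 and 105 FPKM in SCNT-BLs, against 0.287, 13.0 and 34.4 FPKM in IVF-BLs, and did not pass (2.47 ± 0.72, adjusted p = 0.191). That list gave 0 calls in 54 genes, with 1 higher and 4 lower at an unadjusted p under 0.05. Epithelial genes of the blastocoel wall gave 0 calls in 32, with 4 lower at an unadjusted p under 0.05: KRT7 had 0, 4.47 and 12.5 FPKM in SCNT-BLs, against 2.60, 12.3 and 22.5 FPKM in IVF-BLs (adjusted p = 0.355), and KRT19 had 4.29, 13.2 and 19.2 FPKM in SCNT-BLs, against 1.45, 46.0 and 60.1 FPKM in IVF-BLs (adjusted p = 0.459). IVF-BL replicate 6 was the lowest embryo of its group in these keratins, with 1.45 FPKM of KRT19, 607 of KRT8 and 864 of KRT18, against 2341 to 3396 FPKM of KRT8 and 2611 to 3635 FPKM of KRT18 in the other 5 IVF-BLs. Without it the difference of KRT19 was -2.09 and passed (limma adjusted p = 0.0175). This was the only 1 of the 12 fits without 1 embryo in which KRT19 passed, and its highest adjusted p in them was 0.642. CDH1, E-cadherin, differed by 0.35 ± 0.32.

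Secreted products of the trophoblast varied widely among IVF-BLs. IFNT, interferon tau, had 21.3, 144 and 222 FPKM in SCNT-BLs, against 32.3, 329.7 and 1949 FPKM in IVF-BLs (-1.72 ± 0.82, adjusted p = 0.463). TKDP1, a Kunitz domain protein of the ruminant trophoblast, had 0.369, 4.07 and 19.6 FPKM in SCNT-BLs, against 0.752, 92.0 and 236 FPKM in IVF-BLs (-2.72 ± 1.09, adjusted p = 0.368). In both genes the highest IVF-BL lay far above every SCNT-BL while the lowest IVF-BL lay within the SCNT-BL range. The list of 16 such genes had 0 calls, 1 higher and 2 lower at an unadjusted p under 0.05, and a median difference of -0.27. Steroid synthesis genes, by which the trophoblast makes progestagens and oestrogens, had a median of -0.40 in 14 rows, of which 2 were positive. This was the lowest median of the 43 lists with all 12 embryos, but not without SCNT-BL replicates 5 and 6, when primitive endoderm genes had the lowest. None passed, and 3 were lower at an unadjusted p under 0.05. HSD3B1, which makes progesterone from pregnenolone, had 18.6, 75.8 and 113 FPKM in SCNT-BLs, against 39.0, 214 and 837 FPKM in IVF-BLs (-1.62 ± 0.65, adjusted p = 0.375). FDX1, the electron donor of the first step of steroid synthesis, had 0, 1.28 and 2.15 FPKM in SCNT-BLs, against 1.68, 4.39 and 5.24 FPKM in IVF-BLs (-1.18 ± 0.36, adjusted p = 0.206). The medians were -0.31 for the secreted and -0.27 for the steroid list without these 2 embryos.

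**Figure D3:**
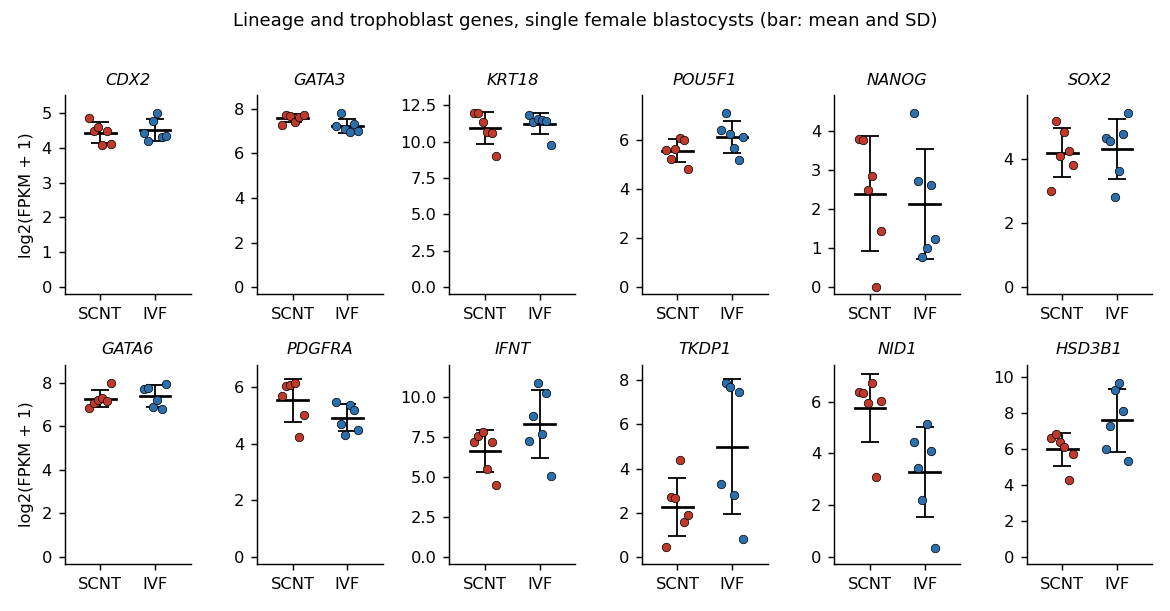
Expression of 12 lineage, trophoblast and basement membrane genes as log2(FPKM + 1), with 1 point for each of 6 SCNT-BLs (red, left) and 6 IVF-BLs (blue, right), and lines for the mean and SD of each group. The ranges of the groups overlap in all 12 genes, and TKDP1 and IFNT spread furthest among IVF-BLs.

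No glycolytic gene passed, and most differences of the list were below 0. Of 29 glycolytic enzymes and sugar or lactate transporters, 6 differences were positive, the median was -0.37, and 1 was higher and 6 were lower at an unadjusted p under 0.05. The list's summed level was 2733 to 4521 FPKM in SCNT-BLs and 3927 to 5595 FPKM in IVF-BLs. GAPDH, the enzyme of the middle of the pathway, had 499, 774 and 992 FPKM in SCNT-BLs, against 1038, 1424 and 1843 FPKM in IVF-BLs, without overlap (-0.89 ± 0.26, adjusted p = 0.184). TPI1, triose phosphate isomerase, had 2.68, 5.60 and 14.6 FPKM in SCNT-BLs, against 4.09, 30.8 and 128 FPKM in IVF-BLs (-1.99 ± 0.63, adjusted p = 0.223), and LDHA, lactate dehydrogenase A, had 4.29, 13.3 and 36.9 FPKM in SCNT-BLs, against 17.6, 27.7 and 50.1 FPKM in IVF-BLs (-0.96 ± 0.41, adjusted p = 0.398). SLC2A1, the main glucose transporter, ran the other way, with 51.1, 73.0 and 107 FPKM in SCNT-BLs, against 33.6, 49.5 and 85.7 FPKM in IVF-BLs (0.58 ± 0.25, adjusted p = 0.406). The median of the list was -0.21 without SCNT-BL replicates 5 and 6, next to -0.01 over all genes. The part of the low depth of those embryos in the list's median was not tested.

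Mitochondrial lists showed smaller shifts. In 20 tricarboxylic acid cycle and pyruvate enzymes the median was -0.20 (-0.09 without SCNT-BL replicates 5 and 6), with 0 calls and 1 gene in each direction at an unadjusted p under 0.05. In 78 oxidative phosphorylation subunits it was -0.19, with 0 calls and 6 higher and 9 lower at an unadjusted p under 0.05, and without SCNT-BL replicates 5 and 6 it was -0.08. Antioxidant enzymes, 29 genes with a median of -0.18, held 1 of the 2 list members past the threshold, TXNRD1 described above. Over all genes tested, 0.308% passed. In this list 1 gene was higher and 3 were lower at an unadjusted p under 0.05. GPX3, a secreted glutathione peroxidase, had 4.18, 10.8 and 20.5 FPKM in SCNT-BLs, against 0.528, 4.07 and 11.2 FPKM in IVF-BLs (1.20 ± 0.52, adjusted p = 0.403).

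Genes of protein synthesis and turnover gave no call. In 78 rows of cytosolic ribosomal proteins, 14 differences were positive (17.9%, next to 46.7% of all genes) and the median was -0.31 (-0.23 without SCNT-BL replicates 5 and 6), with 0 calls and 1 higher and 9 lower at an unadjusted p under 0.05. Many ribosomal protein genes have processed copies in the genome with which they can share reads. RPL37 had 4.92, 43.5 and 75.0 FPKM in SCNT-BLs, against 49.8, 91.9 and 192 FPKM in IVF-BLs (-1.70 ± 0.52, adjusted p = 0.207). Among 41 proteasome subunits the median was -0.16 with 4 lower at an unadjusted p under 0.05, and among 20 aminoacyl-tRNA synthetases it was -0.16, also with 4 lower. Neither list had a call. EIF1, a factor of start codon selection, had 13.9, 24.6 and 30.7 FPKM in SCNT-BLs, against 38.5, 49.4 and 97.0 FPKM in IVF-BLs, without overlap, and stood just outside the threshold (-1.26 ± 0.26, adjusted p = 0.0525). The list of 53 initiation factors that holds it had a median of -0.05, with 24 positive. GABARAPL1, an autophagosome protein, had 15.2, 18.9 and 32.8 FPKM in SCNT-BLs, against 35.9, 48.3 and 72.5 FPKM in IVF-BLs, also without overlap (-1.16 ± 0.24, adjusted p = 0.0539). It passed in only 1 of the 12 fits that left out 1 embryo, that without SCNT-BL replicate 6 (limma adjusted p = 0.0400). The highest adjusted p of GABARAPL1 in those limma fits was 0.159.

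Chromatin genes gave no call in any list. DNA methylation genes had a median of 0.09 in 14 rows, with 3 higher at an unadjusted p under 0.05. The de novo methyltransferase DNMT3A had 5.17, 11.7 and 20.5 FPKM in SCNT-BLs, against 0.357, 3.12 and 10.4 FPKM in IVF-BLs (1.60 ± 0.48, adjusted p = 0.204). TET3, which oxidises methylcytosine, is listed in more than 1 row, and the row named here had 11.9, 34.4 and 47.8 FPKM in SCNT-BLs, against 4.18, 13.8 and 33.6 FPKM in IVF-BLs (1.15 ± 0.40, adjusted p = 0.287). DNMT1, the maintenance enzyme, differed by 0.08 ± 0.28. Polycomb and H3K4 methylation genes had a median of 0.06 in 33 genes, with 5 higher and 2 lower at an unadjusted p under 0.05. PHC3, a Polycomb scaffold protein, had 12.2, 14.7 and 51.3 FPKM in SCNT-BLs, against 5.09, 8.54 and 11.9 FPKM in IVF-BLs (1.16 ± 0.36, adjusted p = 0.206). Methylation of H3K9, a barrier to reprogramming known in other nuclear transfer embryos, was represented by 17 genes with a median of 0.06 and none at an unadjusted p under 0.05. Chromatin remodellers and acetyltransferases had, with all 12 embryos, the highest median of the 43 lists, 0.17 in 37 genes with 1 higher and 1 lower at an unadjusted p under 0.05, and -0.01 without SCNT-BL replicates 5 and 6.

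Imprinted genes, expressed from 1 parental copy and often disturbed in clones, gave 0 calls in 24, with 1 higher and 2 lower at an unadjusted p under 0.05 and a median of -0.04. Without SCNT-BL replicates 5 and 6, which had the lowest mean level of the list (1.96 and 1.80, next to 2.32 to 2.59 in the other SCNT-BLs and 2.15 to 2.61 in IVF-BLs, log2 scale), the median was 0.17. MEST had 0.103, 0.890 and 3.48 FPKM in SCNT-BLs, against 0.690, 5.66 and 18.1 FPKM in IVF-BLs (-1.47 ± 0.56, adjusted p = 0.338). NNAT had 0.577, 2.38 and 5.78 FPKM in SCNT-BLs, against 2.28, 6.48 and 34.8 FPKM in IVF-BLs (-1.31 ± 0.51, adjusted p = 0.355). IGF2R, the receptor that clears IGF2, differed by 0.22 ± 0.20. The single-embryo ranges overlapped in these 3 genes.

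Of 19 interferon-stimulated genes, 5 (26.3%, next to 10.9% of all genes) were lower and none higher in SCNT-BLs at an unadjusted p under 0.05, with a median of -0.28 and no call. MX1, an antiviral GTPase, was listed at 0 in the median SCNT-BL, with a highest value of 0.229 FPKM, against 0.0324, 5.37 and 40.2 FPKM in IVF-BLs (-2.40 ± 0.86, adjusted p = 0.295). USP18, which removes the ISG15 tag, had 0, 0.145 and 11.1 FPKM in SCNT-BLs, against 1.42, 5.83 and 78.6 FPKM in IVF-BLs (-2.21 ± 0.80, adjusted p = 0.304). IVF-BL replicates 2, 3 and 5 were the 3 highest IVF-BLs in both genes, and also in IFNT and TKDP1. In the FGF-ERK list, 1 of 36 genes passed, IER3, next to 0.308% of all genes, and the median of the list was -0.18. FGF2 had 2.79, 3.41 and 4.98 FPKM in SCNT-BLs, against 0.818, 1.33 and 1.95 FPKM in IVF-BLs, without overlap (0.99 ± 0.29, adjusted p = 0.191). Nodal, activin and BMP genes (31, median -0.12), WNT genes (33, median 0.03) and Hippo-YAP genes (30, median -0.04) had no call. Without SCNT-BL replicates 5 and 6 their medians were 0.008, -0.04 and 0.05. At an unadjusted p under 0.05 there were 1 higher and 3 lower, 1 higher and 4 lower, and 0 higher and 2 lower in these 3 lists.

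Cell cycle, DNA repair and stress genes gave no call with all 12 embryos. Of 52 cell cycle and replication genes, 7 were higher and 4 lower at an unadjusted p under 0.05. RRM2, the small subunit of ribonucleotide reductase, had 69.5, 83.0 and 100.4 FPKM in SCNT-BLs, against 98.4, 197 and 209 FPKM in IVF-BLs (-1.01 ± 0.21, adjusted p = 0.0565). It passed in only 1 of the 12 fits that left out 1 embryo, that without IVF-BL replicate 5 (limma adjusted p = 0.0159). The highest adjusted p of RRM2 in those limma fits was 0.159. DNA repair genes had a median of 0.12 in 56, with 4 higher and 2 lower at an unadjusted p under 0.05. MDC1, a scaffold at DNA breaks, had 63.2, 73.7 and 175 FPKM in SCNT-BLs, against 26.9, 49.3 and 77.3 FPKM in IVF-BLs (0.99 ± 0.32, adjusted p = 0.245). CDKN2A, an inhibitor of cell cycle entry, had 5.07, 9.60 and 10.1 FPKM in SCNT-BLs, against 1.80, 2.92 and 4.36 FPKM in IVF-BLs, without overlap (1.23 ± 0.30, adjusted p = 0.111). HSPB8, a small heat shock protein, had 0, 0.299 and 6.56 FPKM in SCNT-BLs, against 2.41, 10.5 and 22.7 FPKM in IVF-BLs (-2.48 ± 0.56, adjusted p = 0.0758). Of the 12 fits that left out 1 embryo, it passed in only 1, that without IVF-BL replicate 6 (limma adjusted p = 0.0353). The highest adjusted p of HSPB8 in those limma fits was 0.177. The stress regulator ATF4 differed by -0.08 ± 0.23.

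**Figure D4:**
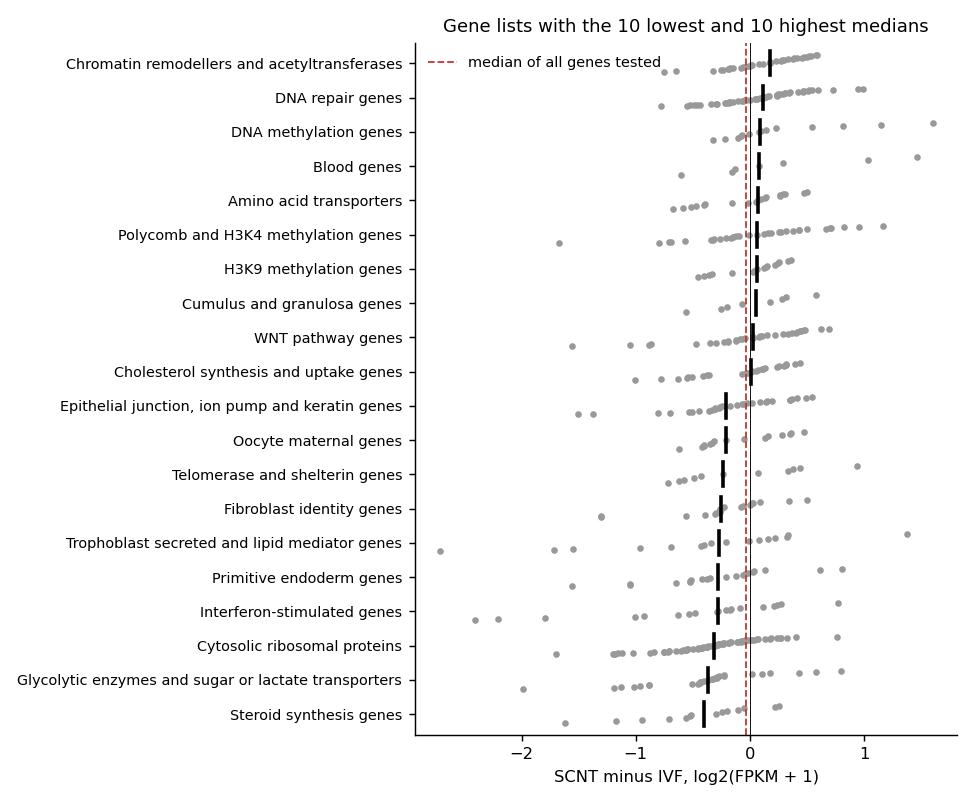
Grey points are the differences of single genes between SCNT-BLs and IVF-BLs in log2(FPKM + 1) for the 10 lists with the lowest and the 10 with the highest medians of 43, and black bars are list medians. The dashed red line is the median of all 14615 genes (-0.04), and list medians run from -0.40 for steroid synthesis genes to 0.17 for chromatin remodellers and acetyltransferases.

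Genes of the donor cell program did not pass the test in either direction. Of 22 fibroblast identity genes, none was called and 1 was lower at an unadjusted p under 0.05, and the mean level of the list was 1.38 to 1.92 on the log2(FPKM + 1) scale in SCNT-BLs, 1.48 to 2.11 in IVF-BLs and 7.87 in the female donor library. Its summed level was 2770 to 6192 FPKM (median 3946) in SCNT-BLs, 2584 to 4224 FPKM (median 3048) in IVF-BLs and 15068 FPKM in the donor library, so the sum and the log mean differed in direction. A further set, defined after the data had been seen on libraries outside this comparison, held 414 genes above 10 FPKM in the female donor library with a mean under 1 FPKM in male IVF-BLs. Its summed level was 761 to 1274 FPKM in SCNT-BLs and 769 to 1225 FPKM in IVF-BLs, against 43085 FPKM in the donor library. None of these genes was called, 10 were higher and 22 lower at an unadjusted p under 0.05, and the median difference was -0.09. The opposite set was 167 genes with a mean above 10 FPKM in male IVF-BLs and under 0.1 FPKM in the female donor library. It held 2 genes past the threshold in each direction, next to 0.205% higher and 0.103% lower of all genes. At an unadjusted p under 0.05 there were 18 in each direction (21.6%, next to 10.9% of all genes), and the median difference was -0.12. This set holds abundant genes, while all genes include rows just above 0.1 FPKM, so the shares are not on equal terms. The correlation of each embryo with the female donor library across 10692 genes was 0.552 ± 0.037 in SCNT-BLs and 0.571 ± 0.018 in IVF-BLs (SD, n = 6 each), a difference of -0.0183 (exact two-sided permutation test, p = 0.348). Without SCNT-BL replicates 5 and 6, at 0.540 and 0.481, the difference was 0.00269 (exact permutation test, p = 0.776). Autosomal genes above 1 FPKM averaged 9962 ± 524 in SCNT-BLs and 10207 ± 250.0 in IVF-BLs (SD, n = 6 each; difference -245, exact permutation test, p = 0.329), and without the same 2 embryos the difference was 81.5 (p = 0.590).

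Male embryos, none of which entered the female comparison, were set beside the genes called in females. Of the 30 genes higher in female SCNT-BLs, 27 also had a higher mean log2 value in male SCNT-BLs than in male IVF-BLs, and 12 of the 15 lower genes were lower there. Over all genes tested, 48.4% and 49.8% had that sign in males. The median male difference was 0.60 for the higher and -0.65 for the lower genes, next to 1.66 and -2.11 in females. The genes had been selected for their differences in females, which makes the female values too large, so the sizes cannot be compared between the sexes. LRRC3B had the largest male difference of the 30, with 12.9 ± 7.57 FPKM in male SCNT-BLs and 2.15 ± 2.45 FPKM in male IVF-BLs (SD, n = 6 each), a difference of 2.32. ST6GALNAC1 differed by -2.44 and IER3 by -1.36 in males.

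A test of the difference between the female and male SCNT contrasts (interaction, limma, 14782 genes) passed in 291 genes (1.97%), 165 with a more positive SCNT difference in females (1.12%) and 126 with a more negative one (0.852%). It passed in 4 of the 30 higher and 1 of the 15 lower genes, which had been selected on the female contrast that enters this test. B3GNT6 had 143 ± 43.9 FPKM in female SCNT-BLs and 27.9 ± 26.6 FPKM in female IVF-BLs, but 3.104 ± 2.18 FPKM in male SCNT-BLs and 46.0 ± 49.2 FPKM in male IVF-BLs (SD, n = 6 each), an interaction of 5.54 ± 1.01 (limma adjusted p = 0.00587). TPD52L1 had 0.468 ± 0.636 FPKM in female SCNT-BLs and 8.75 ± 7.20 FPKM in female IVF-BLs, but 9.13 ± 4.81 FPKM in male SCNT-BLs and 3.57 ± 2.85 FPKM in male IVF-BLs (SD, n = 6 each), an interaction of -3.64 ± 0.76 (limma adjusted p = 0.0152). POLR2L, a small subunit shared by RNA polymerases, had 458 ± 281 FPKM in female SCNT-BLs and 209.5 ± 52.8 FPKM in female IVF-BLs, but 142 ± 50.9 FPKM in male SCNT-BLs and 839 ± 199 FPKM in male IVF-BLs (SD, n = 6 each), an interaction of 3.62 ± 0.41 (limma adjusted p = 2.94e-05). TMEM52 and HIST1H2BN had interactions of 3.47 and 3.48, and YAE1D1, MRPL33 and CCNG2 of -3.61, -2.95 and -2.85. LDHA had a difference of -0.96 in females and 1.31 in males, with an interaction of -2.27 ± 0.53 (adjusted p = 0.0278). Each contrast lay within a flow cell, but males and females were sequenced on separate flow cells and their SCNT-BLs came from different donor fibroblasts. Sex, donor line and flow cell cannot be told apart in the interaction.

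**Figure D5:**
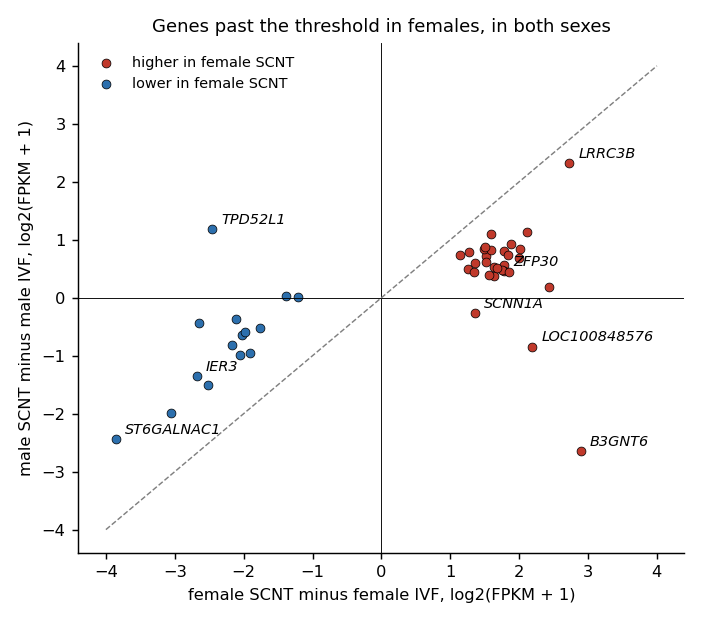
Each point is 1 of the 45 genes past the threshold in females, by its SCNT-BL minus IVF-BL difference in females (x axis) and in males (y axis), both in log2(FPKM + 1), with the line of equal differences dashed. Most points share their sign in both sexes and lie closer to 0 in males, while B3GNT6, LOC100848576, SCNN1A and TPD52L1 lie on the opposite side in males, and LOC100140254 and TXNRD1 lie just past 0 on that side. The genes were selected in females, so their sizes cannot be compared between the sexes.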

How the data were processed

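Poly-A RNA of single blastocysts had been amplified by random-primed PCR (pico-profiling) and sequenced, females and males on separate flow cells. The authors deposited FPKM values per gene, and the submitters' processing notes name Trim Galore, TopHat, Cufflinks, Cuffdiff and the bovine build UMD 3.1. Read counts were not used here, so depth is an estimate and no counting interval is given. The table gives no chromosome, so the 999 rows of the block that holds the study's X-linked genes and 19 rows on X or Y in a later assembly were left out, and 442 tested rows share a symbol with another row. Values were tested as log2(FPKM + 1), with a mean over 0.1 FPKM required, in limma 3.58.1 (trend, R 4.3.3) with Benjamini-Hochberg adjustment at 0.05, and single values by exact two-sided permutation tests (scipy 1.17.1). The fitting code was tested on simulated data. Groups came from the sample labels.

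Named genes were, per direction, the 12 genes with a symbol and the 3 LOC genes with the largest differences past the threshold, every list member past it, fixed anchor genes, the 2 members per list with the largest differences at a mean over 1 FPKM, and, per direction, the 4 largest interactions. LOC100848666, ZNF266, ACOT11, SCNN1A, B3GALT2, WHAMM, LPAR3 and OSMR were added after their values had been seen. Members and gene lists were chosen with earlier results of these data known. Alternatives changed the pseudocount, the filter, the scaling, the samples in the fit, the test and the replicate block, and left out single embryos. Some genes that the rule names are not reported here.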

Additional observations from a re-analysis of the deposited data

Results flagged for a closer look

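In 94 groups of 6 embryos, each the values of a gene or measure reported here, 5 embryos stood apart from the rest of their group by Dixon's gap test, and chance gives about 1 in 20 groups. In SCNT-BLs these were the highest value of TPD52L1, 1.693 FPKM, the highest value of SCNN1A, 102.1 FPKM, and the lowest correlation with the female donor library, 0.481 in replicate 6. In IVF-BLs they were the highest value of UBD, 20.78 FPKM, and the highest value of LRRC3B, 1.571 FPKM.

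The SCNT difference in females minus that in males passed the interaction test (limma) in 5 of the 45 genes past the threshold in females. These 45 had been selected on the female contrast, which is part of that test. It was 5.544 for B3GNT6 (adjusted p = 0.00587), 3.039 for LOC100848576 (adjusted p = 0.0206), 1.627 for SCNN1A (adjusted p = 0.0287), 1.316 for ZFP30 (adjusted p = 0.0435) and -3.639 for TPD52L1 (adjusted p = 0.0152), in log2(FPKM + 1). For ZFP30 the difference was positive in both sexes, and for the other 4 genes the male difference had the opposite sign.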

How the results depend on the processing

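Against 30 genes higher and 15 lower in SCNT-BLs, no filter on low values and the exact permutation test per gene each gave 0 and 0, with 812 higher and 913 lower genes at an unadjusted p under 0.05 in limma without the filter. Too few genes reached the smallest p that the permutation test can give for any to pass the adjustment, so its result decides nothing here. A filter at a mean over 1 FPKM gave 29 lower genes, rescaling to TPM gave 17 higher genes, and a fit over all 35 blastocysts gave 73 higher and 51 lower. Leaving out 1 embryo gave 0 to 32 higher and 0 to 24 lower genes, with 0 in both directions without SCNT-BL replicate 3. The interaction counts, 165 positive and 126 negative, ran from 94 to 176 and from 63 to 128 without 1 embryo. Median centring split the calls into 34 higher and 14 lower. With the replicate number as a replicate block there were 7 higher and 1 lower genes, and 61 positive and 45 negative interactions. Same-numbered SCNT-BLs and IVF-BLs correlated at -0.21 to 0.08 in their deviations from the group means, and the numbers were not read as pairs. Without SCNT-BL replicates 5 and 6, chosen after seeing the data, the difference in correlation with the donor library was 0.00269 and that in genes above 1 FPKM was 81.5, both of the opposite sign. Rescaling without RN18S1, also chosen after seeing the data, gave 35 higher and 12 lower genes. No named gene that was past the threshold changed direction, but these genes had been selected on the same embryos. The causes of these changes were not tested.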
